A study of Mus musculus with 6 samples.

Results

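B cells of the metastatic mouse liver were described in 6 single-cell RNA-seq libraries of sorted CD45+ immune cells. A cell was taken as a B cell when the mean deposited score of Cd79a, Cd79b, Ms4a1 and Ebf1 was above 0.8 and the mean score of Cd3e and Cd3g, subunits of the T cell receptor complex, was below 0.5. This rule selected 2340 of 23008 cells. Members were thus chosen by measured values, so the levels of these genes in B cells, and every contrast of B cells with other cells, are descriptions.

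The hosts were Balb/c mice injected into the heart with 4T07, a tumour cell line of the mouse mammary gland. The tumour cells carried a scramble vector (Ctrl) or an shRNA against Tim3 (Tim3-KD), so the knockdown was in the tumour cells and not in the sorted immune cells. CD45+ cells came from liver with micrometastasis and from adjacent tissue (AT) labelled as free of tumour, both at day 3, and from liver with macrometastasis at day 12. Each of the 6 groups was 1 library of pooled mice. No difference between groups therefore has a replicate check or a test, and every 95% interval below covers counting error only.

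B cells carry the B cell receptor, an immunoglobulin on the surface with the signalling chains CD79A and CD79B. They form from precursors in the bone marrow and, before birth, in the liver. A large pre-B cell divides while it tests its heavy chain with a surrogate light chain made of VPREB and IGLL1. Its descendants make a kappa or lambda light chain, carry IgM, leave as transitional cells, and add IgD, CD23 (Fcer2a) and CD21 (Cr2) as they become mature follicular cells. B cells of the adult liver are largely recirculating cells that pass through its sinusoids.

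The letters below show the promoters in which the octamer was found, since this element and its factors OCT2 (Pou2f2) and OBF1 (Pou2af1) are a hallmark of B cell genes. The octamer ATGCAAAT, read on both strands as ATGCAAAT or ATTTGCAT, was searched in the 250 bases before each gene's start (RefSeq, GRCm38.p6). It was present in 526 of 32851 windows (1.6%). Of 35 measured B cell identity and surrogate light chain genes, 26 had a window and 2 of these held the octamer. They were Vpreb3 (chr10:75948050-75948299, plus strand), whose product associates with immunoglobulin chains during B cell development, and Blnk (chr19:40994222-40994471, minus strand), the adaptor that links the receptor to its downstream kinases. The octamer is in capitals, the sequences run 5′ to 3′ on the gene's strand, and it began 45 bases before the start of Vpreb3 and 130 bases before that of Blnk.
Vpreb3: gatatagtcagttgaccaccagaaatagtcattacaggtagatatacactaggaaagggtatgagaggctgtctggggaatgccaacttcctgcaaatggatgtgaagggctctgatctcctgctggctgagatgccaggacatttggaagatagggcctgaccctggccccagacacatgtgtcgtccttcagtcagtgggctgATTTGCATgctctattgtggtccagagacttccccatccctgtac
Blnk: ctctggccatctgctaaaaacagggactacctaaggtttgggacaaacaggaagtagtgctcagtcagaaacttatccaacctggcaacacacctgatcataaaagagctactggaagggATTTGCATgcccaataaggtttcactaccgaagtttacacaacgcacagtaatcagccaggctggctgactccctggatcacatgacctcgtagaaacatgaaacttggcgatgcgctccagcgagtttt

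The label was checked on genes that the rule had not used. Of 28 further B cell identity genes, 27 were measured, and all 27 were higher in the members than in the other cells of each library that held them, by over 2-fold with 10 CPM added to both sides. CPM scales the UMIs (molecules counted) of a gene by the UMIs of all genes in the same cells. Pax5, the factor that commits cells to the B lineage, lay between 126 and 219.6 CPM in the members and between 0.343 and 3.92 CPM in the other cells. The weakest separation was that of Cd72, an inhibitory receptor that myeloid cells also use, with a lowest ratio of 2.2. By mean log2 ratio over the 6 libraries the 10 leading genes of the shared gene set were Igkc (6.98), Cd79a (6.7), Ebf1 (6.2), Ms4a1 (5.57), Iglc1 (5.46), Ighd (5.29), Ighm (5.24), Cd79b (5.16), Vpreb3 (4.82) and Mzb1 (4.66). Cd79a, Ebf1, Ms4a1 and Cd79b are genes of the rule and do not bear on the label. The label B cells was kept on the identity genes that the rule had not used.

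The genes of the rule were high in each library. Over all members the lowest level of each was in a Tim3-KD lesion. Without mixed cells, the members with markers of another class described below, Ms4a1 and Ebf1 were instead lowest in AT Tim3-KD. In the order AT Ctrl, AT Tim3-KD, micrometastasis Ctrl, micrometastasis Tim3-KD, macrometastasis Ctrl and macrometastasis Tim3-KD, Cd79a stood at 2362, 2315, 2168, 1575, 2079.5 and 1495 CPM. Cd79b, its partner, stood at 807, 809, 1076, 482, 764 and 648 CPM, Ms4a1 (CD20) at 614, 501, 817, 427, 599.5 and 459.5 CPM and Ebf1, the factor that opens the B lineage programme, at 1364, 1038, 1105, 907, 1373 and 879 CPM. Cd3e was between 0 and 0.808 CPM. At least 3 of the 4 rule genes had a UMI in 95.2% to 100% of members. The threshold passed through a thin zone: 14, 6, 2, 2, 12 and 17 members had a mean score of 0.8 to 1, and 7, 3, 5, 4, 11 and 35 cells below the Cd3 limit lay at 0.6 to 0.8. A further 6, 1, 12, 24, 30 and 70 cells had a B cell score above 0.8 and were left out for their Cd3 score. The scores had been scaled within each site, so the same threshold stands for somewhat different UMI levels at the 3 sites.

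Some members carried RNA of other cells. A UMI of at least 2 defining markers of another class was found in 17, 41, 39, 10, 63 and 64 members (6.75, 21.2, 5.76, 12.8, 10.2 and 12.2%), and these mixed cells held 14.4% to 33.9% of the members' UMIs. In AT Tim3-KD 36 of them carried Kupffer cell markers, which summed to 72.9 CPM in members and 9335 CPM in the other cells of that library. Elane and Mpo, enzymes made by neutrophil precursors, summed to 2056 CPM in macrometastasis Tim3-KD members and to 4.06 CPM in those of macrometastasis Ctrl. The authors had removed predicted doublets before deposit. Results that rest on few cells are given below with and without the mixed cells. The median UMIs of members were 5169.5, 9594, 3560, 4289.5, 3762 and 4192, against 8964, 10248, 7531, 9359.5, 6300 and 7342.5 over all cells of the same libraries, so B cells were the shallower cells of each library. No barcode was shared between members of different libraries.

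A pair of libraries stood apart across all their cells, before any B cell contrast. Erdr1, a pseudoautosomal gene, was at 0 CPM in AT Ctrl members (0 UMIs, which allow up to 1.65 CPM), 49.2 CPM in AT Tim3-KD, 34.5 CPM in macrometastasis Ctrl and 0.539 CPM in macrometastasis Tim3-KD. In the other cells of the same libraries it was at 0.0694, 47.8, 30.1 and 0.455 CPM. AT Tim3-KD and macrometastasis Ctrl thus shared a high level that AT Ctrl and macrometastasis Tim3-KD lacked, in B cells and other cells alike. In the micrometastasis libraries it was not analysed here. Erdr1 was named by the rule for genes of extreme ratio, and its part in the contrasts below was not tested. The labels were used as deposited. Whether the mice of these libraries differed, or labels were crossed at a site, was not tested, and crossed labels would turn every Tim3-KD over Ctrl contrast of that site.

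As a share of all sorted cells, B cells were alike in the 3 Ctrl libraries and lay apart from one another in the 3 Tim3-KD libraries. They were 14% of cells in AT Ctrl (252 of 1803, 95% interval 12.4 to 15.7), 13.3% in micrometastasis Ctrl (677 of 5106, 12.3 to 14.2) and 12.5% in macrometastasis Ctrl (615 of 4913, 11.6 to 13.5). With Tim3-KD they were 35.6% in AT (193 of 542, 31.6 to 39.8), 1.52% in micrometastasis (78 of 5142, 1.2 to 1.89) and 9.54% in macrometastasis (525 of 5502, 8.78 to 10.3). Intervals of shares are exact Clopper-Pearson intervals. The difference Tim3-KD minus Ctrl was 21.6 points in AT (Newcombe interval 17.4 to 26), -11.7 points in micrometastasis (-12.7 to -10.8) and -2.98 points in macrometastasis (-4.19 to -1.77). The sign in AT was opposite to that in the lesions. With cells other than neutrophils as the denominator the Ctrl shares were 27.4, 21.1 and 19.3%, and the AT difference was 9.56 points, and without mixed cells 15 points.

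A share moves with every other cell in the sort, so the B cells were also set against T cells of the same library (mean Cd3e and Cd3g score above 0.8 and mean B cell score below 0.5). There were 1.47 B cells per T cell in AT Ctrl (1.2 to 1.79) and 1.62 in AT Tim3-KD (1.28 to 2.06), and these intervals overlapped. In micrometastasis the number was 1.6 with Ctrl (1.41 to 1.81) and 0.213 with Tim3-KD (0.165 to 0.273), from 78 B cells and 366 T cells. In macrometastasis it was 1.44 with Ctrl (1.27 to 1.63) and 0.989 with Tim3-KD (0.875 to 1.12). The low B cell number of Tim3-KD micrometastasis was thus present against T cells as well, while in AT the intervals of B cells per T cell did not separate. Fewer B cells, more of the other cells and their recovery in the sort cannot be told apart by such shares.

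**Figure D1:**
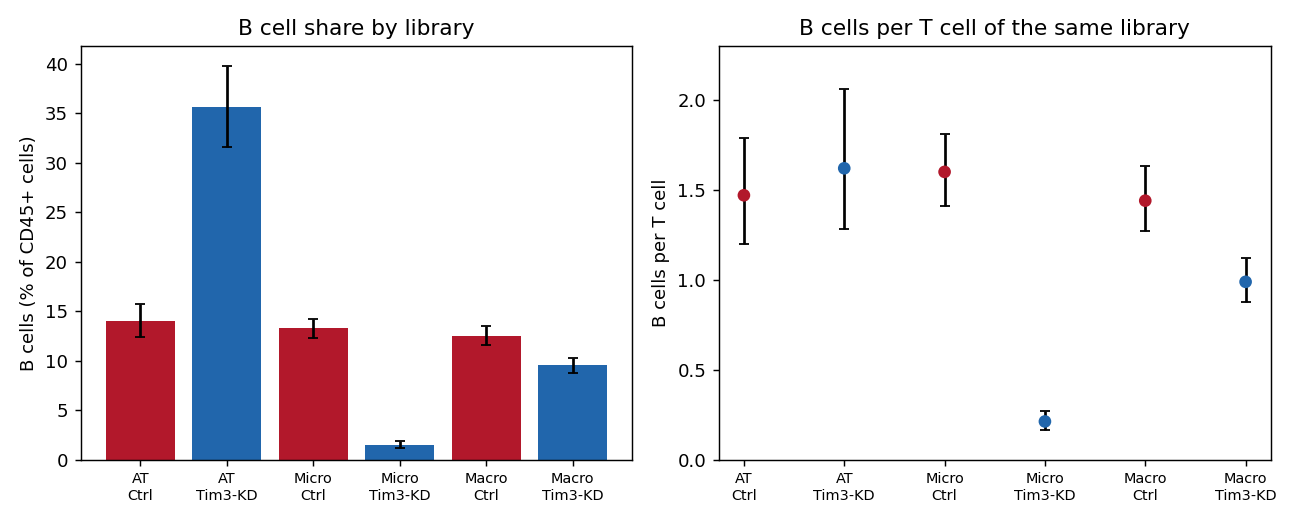
Left, B cells in percent of CD45+ cells in each library (bars from 0), and right, B cells per T cell (points), red for Ctrl and blue for Tim3-KD, with 95% intervals of counting error. The micrometastasis Tim3-KD library stands lowest in both plots, at 1.52% and 0.213, while AT Tim3-KD stands highest in share at 35.6% with 1.62 B cells per T cell.

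Igkc and Ighm were the highest of the measured immunoglobulin constant genes, and Iglc2 was above Ighd, in all 6 libraries. Igkc, the kappa constant gene (chr6:70726435-70726966, plus strand), stood at 6434 and 7053 CPM in AT (Ctrl and Tim3-KD), 6987 and 4644 CPM in micrometastasis and 6293 and 4817 CPM in macrometastasis. Ighm, the IgM heavy chain (chr12:113418558-113422730, minus strand), stood at 2736 and 2033 CPM in AT (Ctrl and Tim3-KD), 2828 and 1431 CPM in micrometastasis and 1975 and 1659.8 CPM in macrometastasis. Ighd, the IgD heavy chain that marks mature naive cells (chr12:113406604-113416324, minus strand), stood at 469 and 634 CPM in AT (Ctrl and Tim3-KD), 477 and 462 CPM in micrometastasis and 681 and 359.9 CPM in macrometastasis. Iglc1, Iglc2 and Iglc3, the lambda constant genes, lay at 408 to 858, 910.4 to 1783 and 349 to 590.5 CPM. Iglc2 and Iglc3 are near-identical in sequence, so the split of reads between them is uncertain. The IgG, IgA and IgE heavy chain genes were not analysed here.

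To compare detection at 1 depth, each cell was thinned to 1500 UMIs, below which no member lay. Ighm then had a UMI in 94, 85, 92.3, 87.2, 88.6 and 85.9% of members in library order, and in 2.45% to 10% of the other cells, which include plasmacytoid dendritic cells with 533 to 882 CPM of Ighm. Ighd had a UMI in 48.4, 56.5, 49.3, 53.8, 65 and 47.2% of members after thinning, 72.2, 93.3, 70.2, 80.8, 84.2 and 65.5% before, and 0.118% to 0.86% of other cells. The highest thinned Ighd share, that of macrometastasis Ctrl, had an interval of 61.1 to 68.8%, above that of macrometastasis Tim3-KD at 42.9 to 51.6%. In AT the intervals of Ctrl (42.1 to 54.8%) and Tim3-KD (49.2 to 63.6%) overlapped.

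A B cell normally keeps 1 light chain isotype, yet before thinning Iglc2 had a UMI in 88.2% to 97.9% of members and Igkc in 96.2% to 100%. Among members with at least 10 light chain UMIs, the lambda share of those UMIs had a median of 20.9, 23.8, 24.5, 30.2, 23.5 and 22.6% in library order. Lambda UMIs were summed over 4 features in AT and 3 in the lesions, so values of AT and the lesions are not on the same sum. Kappa held the majority in 86.7% to 93.8% of these cells. A small group had a lambda share over 80%: 9, 3, 35, 3, 28 and 15 cells, or 3.64% (1.68 to 6.8) in AT Ctrl, 1.56% (0.323 to 4.5) in AT Tim3-KD, 5.23% (3.67 to 7.2) in micrometastasis Ctrl, 4% (0.833 to 11.2) in micrometastasis Tim3-KD, 4.67% (3.12 to 6.67) in macrometastasis Ctrl and 3.19% (1.8 to 5.21) in macrometastasis Tim3-KD. The intervals of Ctrl and Tim3-KD overlapped at each site. The UMIs counted reads over introns as well as exons, and whether the lambda UMIs of kappa cells come from lambda mRNA was not tested. After thinning Iglc2 had a UMI in 68.2% to 82.1% of members and in 0.294% to 2.29% of the other cells of the libraries.

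**Figure D2:**
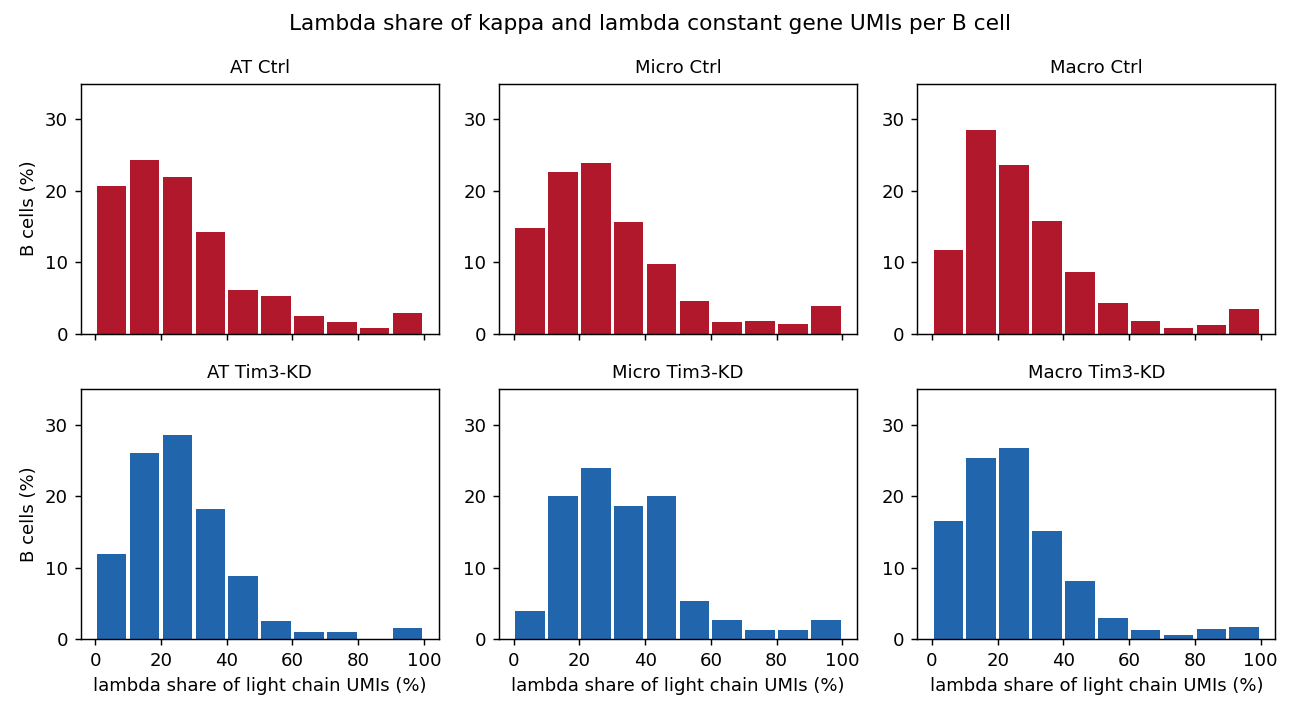
Share of B cells (vertical axis, percent) by the lambda share of their light chain constant gene UMIs (horizontal axis, bins of 10 percent), for members with at least 10 such UMIs, red for Ctrl and blue for Tim3-KD. Most cells lie below 50%, with medians of 20.9% to 30.2%, and a small separate group lies at the right end.

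Genes of division and of early B cell stages set the libraries apart. Mki67, Pclaf, Stmn1 and Myb were lower in AT Tim3-KD and macrometastasis Ctrl than in the other 4 libraries. Mki67, a marker of dividing cells, stood at 71.7 and 0.895 CPM in AT (Ctrl and Tim3-KD), 61.4 and 64.1 CPM in micrometastasis and 1.02 and 52 CPM in macrometastasis. Pclaf, a replication factor, stood at 133 and 4.03 CPM in AT (Ctrl and Tim3-KD), 146 and 73 CPM in micrometastasis and 0.339 and 91.3 CPM in macrometastasis, and Stmn1, a tubulin regulator of dividing cells, at 276 and 20.1 CPM in AT (Ctrl and Tim3-KD), 171 and 144 CPM in micrometastasis and 14.6 and 199 CPM in macrometastasis. Myb, a factor of early B cell stages, stood at 38.6 and 2.68 CPM in AT (Ctrl and Tim3-KD), 26.9 and 35.4 CPM in micrometastasis and 2.37 and 71.6 CPM in macrometastasis. Without mixed cells Myb stood at 24.7, 2.44, 26.5, 6.37, 2.09 and 22.4 CPM in library order, so its level in both Tim3-KD lesions was lower once mixed cells were left out.

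These genes were carried by few cells. Counting for each member how many of the 9 proliferation genes had a UMI gave a distribution with a main body at 0 to 3 genes and a second group at 7 to 9 genes, with 5 cells between them. Members with at least 4 of them, called dividing cells here, numbered 12, 1, 19, 4, 0 and 20 in library order. They were 4.76% of members in AT Ctrl (2.48 to 8.17), 0.518% in AT Tim3-KD (0.0131 to 2.85), 2.81% in micrometastasis Ctrl (1.7 to 4.35), 5.13% in micrometastasis Tim3-KD (1.41 to 12.6) and 3.81% in macrometastasis Tim3-KD (2.34 to 5.82). In macrometastasis Ctrl there was none among 615, which allows a share of up to 0.488% taken as 3 counts of the total, and 0.598% as the exact upper limit. The dividing cells were deep, with median UMIs of 15982 to 27550.5 in the libraries with more than 1. After thinning to 1500 UMIs, at least 2 of the 9 genes were detected in 7.14, 0.518, 3.55, 3.85, 0.488 and 4% of members in library order, with intervals of 4.29 to 11.1% in AT Ctrl against 0.0131 to 2.85% in AT Tim3-KD, and 0.101 to 1.42% in macrometastasis Ctrl against 2.49 to 6.05% in macrometastasis Tim3-KD. Of the dividing cells 17 were mixed cells, and 39 were not.

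**Figure D3:**
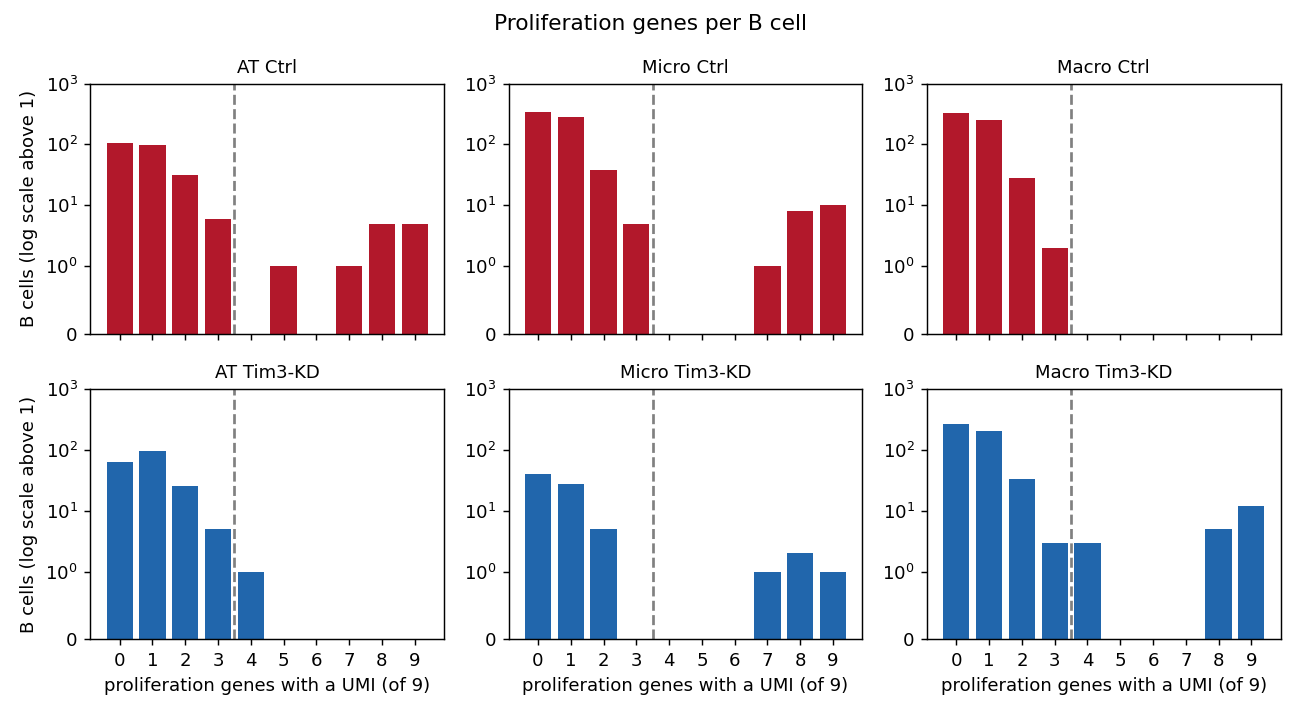
Number of B cells (vertical axis, log scale above 1) by how many of 9 proliferation genes had a UMI in the cell (horizontal axis), red for Ctrl and blue for Tim3-KD, with the dashed line at the limit for dividing cells. A second group at 7 to 9 genes is seen in AT Ctrl, both micrometastasis libraries and macrometastasis Tim3-KD and not in AT Tim3-KD or macrometastasis Ctrl.

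The dividing cells were high in genes of B cell precursors and low in genes of mature B cells. Pooled over libraries and without mixed cells, Ighd had a UMI in 6 of 39 dividing cells (24.6 CPM, against 620.4 CPM in the other 2067 members), and Fcer2a had a UMI in none, which allows up to 7.69% of them (214 CPM in the other members). Ms4a1, which is switched on late in the precursor series, was at 294 CPM against 714 CPM, but as a gene of the rule it does not bear on this contrast. H2-Aa, which presents antigen with its partner chain, was at 835 CPM against 4909.7 CPM. On the other side Vpreb3 stood at 1449.6 CPM against 313 CPM, Il7r, the receptor for the growth factor of precursors, at 129 against 8.41 CPM, Sox4 at 107 against 8.69 CPM and Myb at 123 against 9.35 CPM. Ighm was close between the groups, at 2331 and 2472 CPM, and Igkc lay at 2978 against 7282 CPM. These are descriptive levels pooled over cells of several libraries, whose shares of dividing cells differed.

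The surrogate light chain genes were measured in AT alone, where they overlapped with the dividing cells. Vpreb1 (chr16:16868403-16870843, minus strand) stood at 57.9 CPM in the Ctrl library and 0.447 CPM in the other, Vpreb2 at 22.1 and 0 CPM, and Igll1 (chr16:16860671-16863985, minus strand) at 32 and 0 CPM. Deposited scores were capped at 10, and a capped value gives only the least UMIs a cell can have had. In AT Ctrl 9 of 16 Vpreb1 values, 6 of 11 Vpreb2 values and 8 of 13 Igll1 values were capped, so these levels are lower bounds. At least 2 of the 3 genes had a UMI in 13 of 252 members of AT Ctrl, of which 11 lacked an Ighd UMI and 8 were dividing, and in 0 of 193 members of AT Tim3-KD, which allows up to 1.55%. None of the 1551 other cells of AT Ctrl had 2 of them, which allows up to 0.193%. The combination was thus seen in selected B cells and not in the other cells of that library.

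Early neutrophil genes in the other cells moved with these dividing B cells. Among the cells that were not B cells, 12.4, 0, 7.38, 23, 1.93 and 6.49% in library order had at least 2 UMIs of Elane, the neutrophil elastase made by promyelocytes. The 0 of 349 cells in AT Tim3-KD allows up to 0.86%. Of the same other cells 22.5, 1.15, 13.4, 31.6, 5.37 and 10.8% had at least 4 of the 9 proliferation genes. AT Tim3-KD and macrometastasis Ctrl, the pair lowest in Elane, was also the pair lowest in dividing B cells and the pair high in Erdr1. The part of these differences between libraries in the B cell result was not tested.

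Fcer2a, a gene of mature B cells, ran the other way in AT and macrometastasis, while Ms4a1, a gene of the rule, did not in AT. Fcer2a, the low-affinity IgE receptor CD23 (chr8:3681737-3694175, minus strand), stood at 124 and 305 CPM in AT (Ctrl and Tim3-KD), 152 and 70.8 CPM in micrometastasis and 258 and 105 CPM in macrometastasis. It was highest in AT Tim3-KD and macrometastasis Ctrl, the libraries with 1 and 0 dividing cells. At 1500 UMIs it was detected in 16.3, 33.2, 22.6, 7.69, 32.7 and 20.6% of members in library order, and in 0.0197% to 0.86% of other cells. Cr2, the complement receptor CD21, was measured in AT (24.3 and 62.6 CPM, Ctrl and Tim3-KD) and macrometastasis (90.7 and 56 CPM). At 1500 UMIs Cr2 was detected in 3.97% (1.92 to 7.18) and 7.25% (4.02 to 11.9) of members in AT, and in 13.7% (11 to 16.6) and 13.5% (10.7 to 16.8) in macrometastasis, so the intervals overlapped at both sites. Vpreb3, which falls as transitional cells mature, stood at 648 and 181 CPM in AT (Ctrl and Tim3-KD), 436 and 241 CPM in micrometastasis and 191 and 292 CPM in macrometastasis and was detected in 36.1, 21.2, 35.9, 21.8, 23.3 and 27.8% of members after thinning. Cd93, a marker of transitional cells that endothelial and myeloid cells also use, stood at 33.6 and 2.68 CPM in AT (Ctrl and Tim3-KD), 20.8 and 19.9 CPM in micrometastasis and 15.2 and 18 CPM in macrometastasis.

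**Figure D4:**
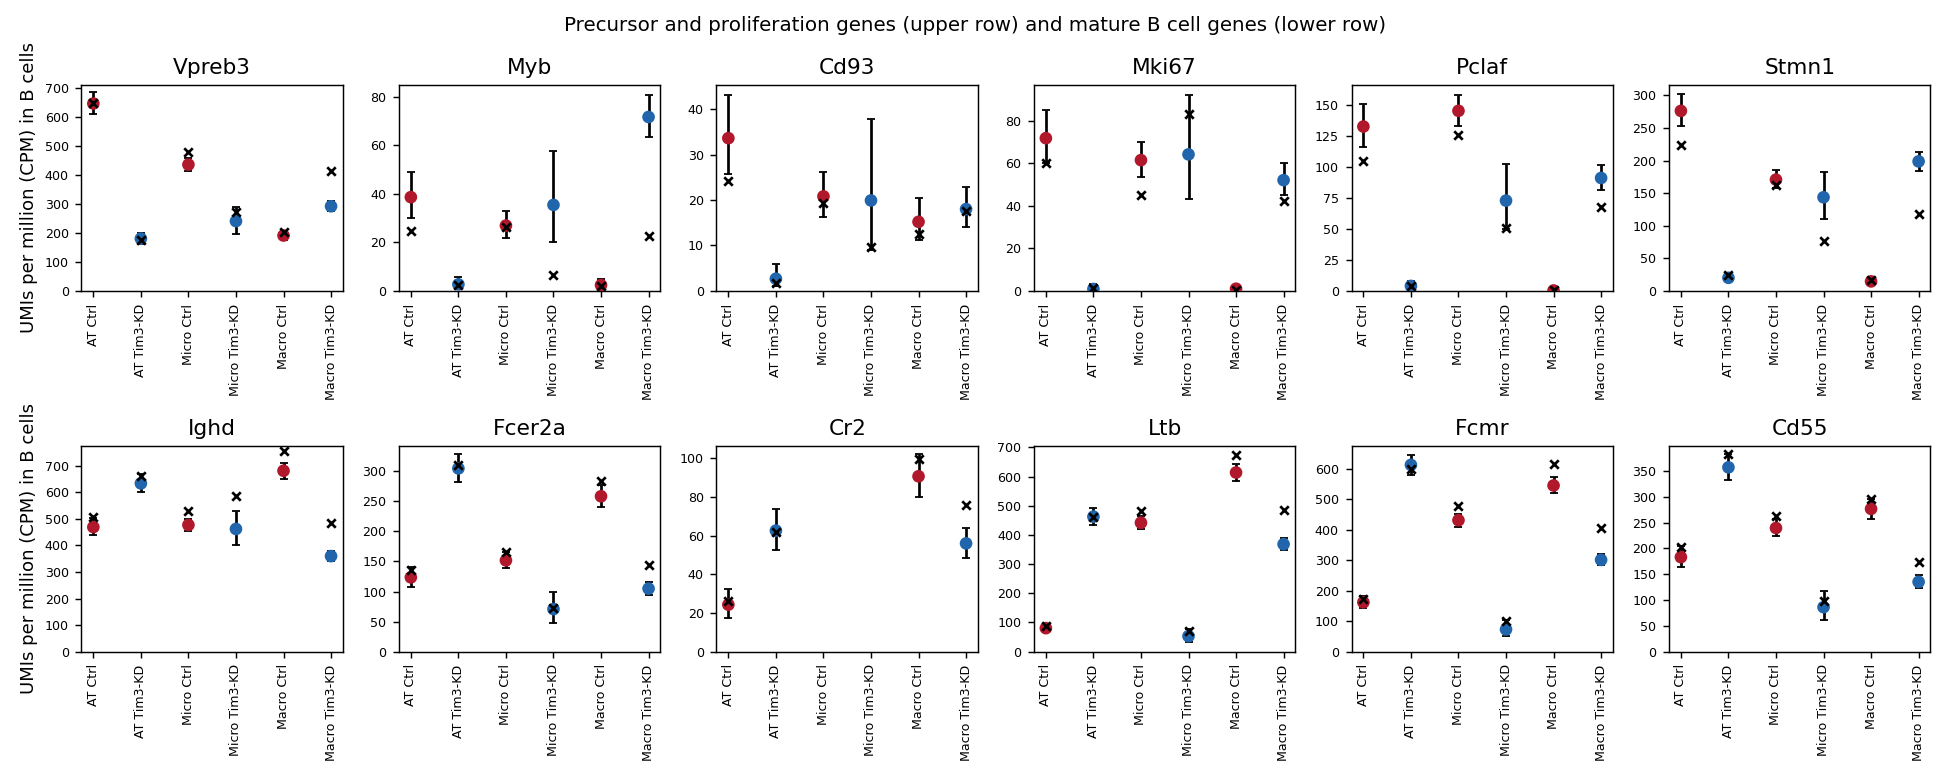
Level in B cells (CPM, linear axes from 0) of 6 precursor or proliferation genes and 6 genes of mature B cells in each library, circles for all members with 95% counting intervals (red Ctrl, blue Tim3-KD) and crosses for members without mixed cells. Mki67 lies at 0.895 and 1.02 CPM in AT Tim3-KD and macrometastasis Ctrl, where Fcer2a is highest, and Cr2 was not measured in micrometastasis.

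Tim3-KD was then set against Ctrl within each site, gene by gene. A gene was called when the ratio of its CPM was past 2-fold and its exact conditional 95% interval excluded 1, among genes with at least 30 UMIs over both libraries and with 0.5 UMIs added to each sum. In AT 134 of 2903 genes (4.62%) were called higher and 379 (13.1%) lower. Without mixed cells 118 of 2515 genes (4.69%) were called higher and 293 (11.7%) lower. In micrometastasis 68 of 1867 genes (3.64%) were called higher and 164 (8.78%) lower, and without mixed cells 52 of 1650 genes (3.15%) were called higher and 98 (5.94%) lower. In macrometastasis 164 of 1759 genes (9.32%) were called higher and 135 (7.67%) lower, and without mixed cells 59 of 1453 genes (4.06%) were called higher and 65 (4.47%) lower. The median log2 ratio over all tested genes was -0.22, -0.17 and -0.26 in AT, micrometastasis and macrometastasis. With the ratios centred on their trimmed mean, the calls split 209 higher and 256 lower in AT, 93 and 105 in micrometastasis and 201 and 59 in macrometastasis.

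In AT, the Tim3-KD library was lower in precursor and proliferation genes of B cells and higher in Ltb, Fcmr, Fcer2a and some immediate early genes. Of the 9 proliferation genes all 9 were lower (median log2 ratio -5.26, or -4.24 with the 2 genes at 0 UMIs in Tim3-KD set to the limit of 3 counts per library), and without mixed cells 7 of 7 tested. Of the transitional genes 3 of 3 tested were lower, Vpreb3 with a ratio of 0.279 (0.249 to 0.313), Myb with 0.0748 (0.0247 to 0.159) and Cd93 with 0.0857 (0.0282 to 0.184), and of the precursor genes 4 of 4 were lower (Vpreb1, Vpreb2, Igll1 and Il7r). Ltb, which encodes lymphotoxin beta and shapes lymphoid tissue (chr17:35194439-35196320, plus strand), was higher with a ratio of 5.73 (4.83 to 6.88), and without mixed cells 5.22 (4.35 to 6.33). Fcmr, the IgM Fc receptor (chr1:130865669-130880791, plus strand), had a ratio of 3.78 (3.33 to 4.3), Fcer2a 2.46 (2.12 to 2.88) and Cr2 2.56 (1.83 to 3.71). Of 17 immediate early and activation genes tested 4 were higher, Jun with 4.76 (4.23 to 5.39), Junb with 2.69 (2.51 to 2.9), Ier2 with 4.07 (3.47 to 4.81) and Dusp1 with 2.82 (2.38 to 3.38), and 2 were lower, Atf3 with 0.228 (0.185 to 0.278) and the NF-kappaB inhibitor Nfkbia with 0.497 (0.448 to 0.551). Over all tested genes 4.62% were called higher and 13.1% lower, so the lower count was near the share of all genes. The median log2 ratio of these 17 genes was 0.49, and centring on the trimmed mean added Egr1, Fos and Dusp2 to the higher genes and lost Nfkbia. Klf2, a factor of quiescent recirculating lymphocytes, had 2.02 (1.83 to 2.24) over all members and 1.97 (1.76 to 2.21) without mixed cells.

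Several other groups held no called gene in AT. None of 10 MHC class II and costimulation genes (median log2 ratio 0.16), 8 homing genes (0.19), 4 survival genes (0.48) and 4 isotype genes (-0.15) was called. H2-Aa had a ratio of 1.09 (1.06 to 1.12), Ccr7, the receptor that guides cells to lymph nodes, 1.05 (0.968 to 1.15), and Tnfrsf13c, the BAFF receptor, 0.713 (0.622 to 0.817). Of 17 receptor signalling genes Cr2 was higher and the inhibitory receptor Fcgr2b lower (0.494, 0.366 to 0.661), the latter only without centring. Beside them, 4.62% of all tested genes were called higher and 13.1% lower. Of 5 marginal zone genes Cr2 was higher and Cd1d1 and Cd9 lower, and of 3 B-1 genes Ahnak (0.361, 0.296 to 0.438) and Plac8 (0.337, 0.31 to 0.366) were lower. Of 9 interferon genes 5 were lower over all members, beside 13.1% of all tested genes. Without mixed cells 1 of 6 was lower, the nucleic acid sensor Zbp1 (0.383, 0.187 to 0.716), near the 11.7% of all tested genes. The AT genes with the highest lower bounds were Erdr1 with 110 UMIs in Tim3-KD and 0 in Ctrl, Mrps24 (12.1, 7.03 to 24.8), Sdhaf1 (9.8, 6.14 to 17.6), the Kupffer cell lectin Clec4f (23.5, 5.93 to 1409) and Ltb. Those with the lowest upper bounds were the neutrophil precursor genes Prtn3 (0 UMIs in Tim3-KD and 406 in Ctrl), Mpo (0 and 398), Ctsg (0 and 213) and Ms4a3 (0 and 101), and S100a4 with 0.0164 (0.00613 to 0.0319). For Mpo, 1 cell held 90% of the Ctrl UMIs, and for S100a4, 14 of 252 cells did. Prtn3 had a UMI in 65 of the 252 AT Ctrl members and stood at 1796 CPM in the other cells of that library.

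In micrometastasis, the 78 B cells of the Tim3-KD library were lower in Ltb, Fcmr, Cd55 and Fcer2a, genes that mature B cells use. Ltb stood at 53.1 CPM against 442 CPM in Ctrl, a ratio of 0.123 (0.0768 to 0.179), and Fcmr at 73 against 432 CPM, a ratio of 0.172 (0.116 to 0.238). Ltb was spread over many cells, since 346 of 677 Ctrl members held 90% of its UMIs. Without mixed cells the ratios were 0.149 (0.0911 to 0.222) and 0.216 (0.145 to 0.302). Fam43a followed with 0.189 (0.0635 to 0.385), Cd55, a complement regulator, with 0.365 (0.254 to 0.496), Fcer2a with 0.473 (0.316 to 0.666), Bach2, a factor that holds B cells in the naive state, with 0.373 (0.183 to 0.637), and Cd40, the receptor for T cell help, with 0.401 (0.181 to 0.718). Of 18 receptor signalling genes 2 were lower, Cd79b (0.449, 0.389 to 0.514) and Cd72 (0.425, 0.31 to 0.56), beside 8.78% of all tested genes, with a median log2 ratio of the list of -0.52. Cd79b, like Cd79a of the same list, is a gene of the rule, so its ratio is a description and does not bear on the list. Without mixed cells Cd72 alone was lower (0.498, 0.357 to 0.666) with a list median of -0.27, and its call was then lost with centring. Over all members the calls of Cd79b and Fcer2a were lost with ratios centred on the trimmed mean. Ighd, in contrast, had a ratio of 0.97 (0.835 to 1.12) and H2-Aa 0.748 (0.709 to 0.788). Over all members none of the 3 transitional genes, none of 17 immediate early and activation genes and none of 10 MHC class II and costimulation genes was called. Without mixed cells Myb was lower (0.299, 0.0286 to 0.897, from 2 UMIs in Tim3-KD), and Egr2 (2.6, 1.06 to 5.31) and Myc (2.19, 1.64 to 2.86) were higher. Of 9 proliferation genes 1 was higher (Rrm2, 2.21, 1.48 to 3.18) and none lower, beside 3.64% and 8.78% of all tested genes. Without mixed cells 2 of the 9 were lower, Pclaf (0.416, 0.228 to 0.664) and Stmn1 (0.478, 0.298 to 0.706), and Mki67 had 1.88 (1.17 to 2.82), from 2 dividing cells among 68.

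The highest ratios of micrometastasis rested on 1 or 2 cells. Ms4a3, Elane, Ctsg, Prtn3 and Mpo, all genes of neutrophil precursors, led with ratios of 395, 155, 111, 57.8 and 57.1, and for each of them 2 of the 78 cells held 90% of the UMIs. In the other cells of that library Elane stood at 2449 CPM, against 1193 CPM in micrometastasis Ctrl. Without mixed cells Elane had 0.854 (0.0803 to 2.76). The chemokine genes Ccl3 (69, 44.5 to 117) and Ccl4 (10.4, 8.33 to 13) then led, and 1 cell of 68 held 90% of the UMIs of each. Among the lowest upper bounds, Stfa3, Ccl5, Ccl24 and C1qa had 90% of their Ctrl UMIs in 1 to 3 of 677 cells.

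In macrometastasis the proliferation genes ran opposite to AT. Of 9 proliferation genes all 9 were higher with Tim3-KD (median log2 ratio 5.66), and without mixed cells 7 of 8 tested. Mki67 had a ratio of 44 (17.3 to 250.4) from 193 UMIs against 3, and without mixed cells 67.4 (17.6 to 4009) from 103 against 1. Vpreb3 had 1.53 (1.38 to 1.7), and without mixed cells 2.04 (1.83 to 2.28). Il7r had 1.47 (1.03 to 2.14) and without mixed cells 8.66 (4.23 to 23.8). Fcer2a was lower with 0.406 (0.358 to 0.459), and without mixed cells 0.509 (0.446 to 0.579), just short of 2-fold. Of the transitional genes 1 of 3 was higher over all members (Myb, 28.3, 14.5 to 75.9) and 2 of 3 without mixed cells (Myb, 9.85, 4.33 to 34.4, and Vpreb3), beside 9.32% and 4.06% of all tested genes. Ighd had 0.528 (0.492 to 0.566) and without mixed cells 0.641 (0.596 to 0.69).

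Jun, which encodes a subunit of the early response factor AP-1, stood at 174 and 828 CPM in AT (Ctrl and Tim3-KD), 263 and 137 CPM in micrometastasis and 653 and 259 CPM in macrometastasis. Nr4a1, a gene induced by B cell receptor signals, stood at 325 and 456 CPM in AT (Ctrl and Tim3-KD), 321 and 259 CPM in micrometastasis and 523 and 176 CPM in macrometastasis. Both were higher in AT Tim3-KD and macrometastasis Ctrl than in the other 4 libraries, as Fcer2a was. At 1500 UMIs, however, Nr4a1 was detected in 41.7, 38.9, 34.3, 32.1, 49.4 and 24.6% of members in library order, and the intervals of AT Ctrl (35.5 to 48.0%) and AT Tim3-KD (31.9 to 46.1%) overlapped. Of 14 immediate early and activation genes tested in macrometastasis 4 were lower over all members, beside 7.67% of all tested genes (median log2 ratio of the list -0.53): Jun (0.396, 0.366 to 0.428), Nr4a1 (0.337, 0.307 to 0.369), Egr3 (0.461, 0.382 to 0.553) and the costimulatory Cd83 (0.47, 0.436 to 0.507). Without mixed cells Jun (0.353, 0.32 to 0.388) and Nr4a1 (0.366, 0.329 to 0.407) were still called, beside 4.47% of all tested genes. With ratios centred on the trimmed mean Egr3 and Cd83 were not called. For Jun, 260 of 552 unmixed Ctrl members held 90% of the UMIs, so its UMIs were spread over many cells. Fos, which encodes the partner of Jun, had 0.844 (0.786 to 0.906), and Cd69 0.814 (0.743 to 0.892). H2bc4, a histone gene, was among the lowest with 0.191 (0.162 to 0.224), and so was Erdr1, given above. The neutrophil precursor genes Prtn3, Elane, Ctsg, Ms4a3 and Mpo led the higher genes over all members, with 90% of their UMIs in 6 or 7 of 525 cells. Without mixed cells Pclaf (108, 28.7 to 6438), Mki67, 1810009A15Rik (30.8, 14.2 to 105), Birc5 and Ube2c led. Cox6a2, Smim5 and Ccr9, genes of plasmacytoid dendritic cells, were lower over all members, with 90% of their Ctrl UMIs in 7 to 13 of 615 cells.

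Over all members the list medians of several other B cell lists in macrometastasis also lay below that of all tested genes, among them homing (-0.68), MHC class II and costimulation (-0.65) and transcription factors (-0.53). Without mixed cells the median of all tested genes was -0.16. Homing then lay at -0.36 and MHC class II and costimulation at -0.35, while transcription factors, at -0.15, were no longer below it. H2-Aa, an MHC class II chain, stood at 4304 and 4697 CPM in AT (Ctrl and Tim3-KD), 4473 and 3344 CPM in micrometastasis and 4872 and 3099 CPM in macrometastasis, and its ratio in macrometastasis was 0.636 (0.621 to 0.652), and 0.819 (0.798 to 0.841) without mixed cells. Of 10 MHC class II and costimulation genes in macrometastasis Cd80 was higher (2.48, 1.14 to 6.61) and H2-DMb1 (0.428, 0.362 to 0.503) and Cd83 lower, beside 9.32% and 7.67% of all tested genes. Both lower calls were lost with ratios centred on the trimmed mean, and without mixed cells none of 9 was called (median log2 ratio -0.35). H2-Ab1 and H2-Eb1, further class II chains, had 0.556 (0.538 to 0.575) and 0.591 (0.57 to 0.613). Without mixed cells these ratios were 0.724 (0.698 to 0.75) and 0.755 (0.725 to 0.785). Of 17 receptor signalling genes (median log2 ratio -0.39, and -0.13 without mixed cells) and 6 isotype genes (-0.35, and -0.07 without mixed cells) none was called in macrometastasis.

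**Figure D5:**
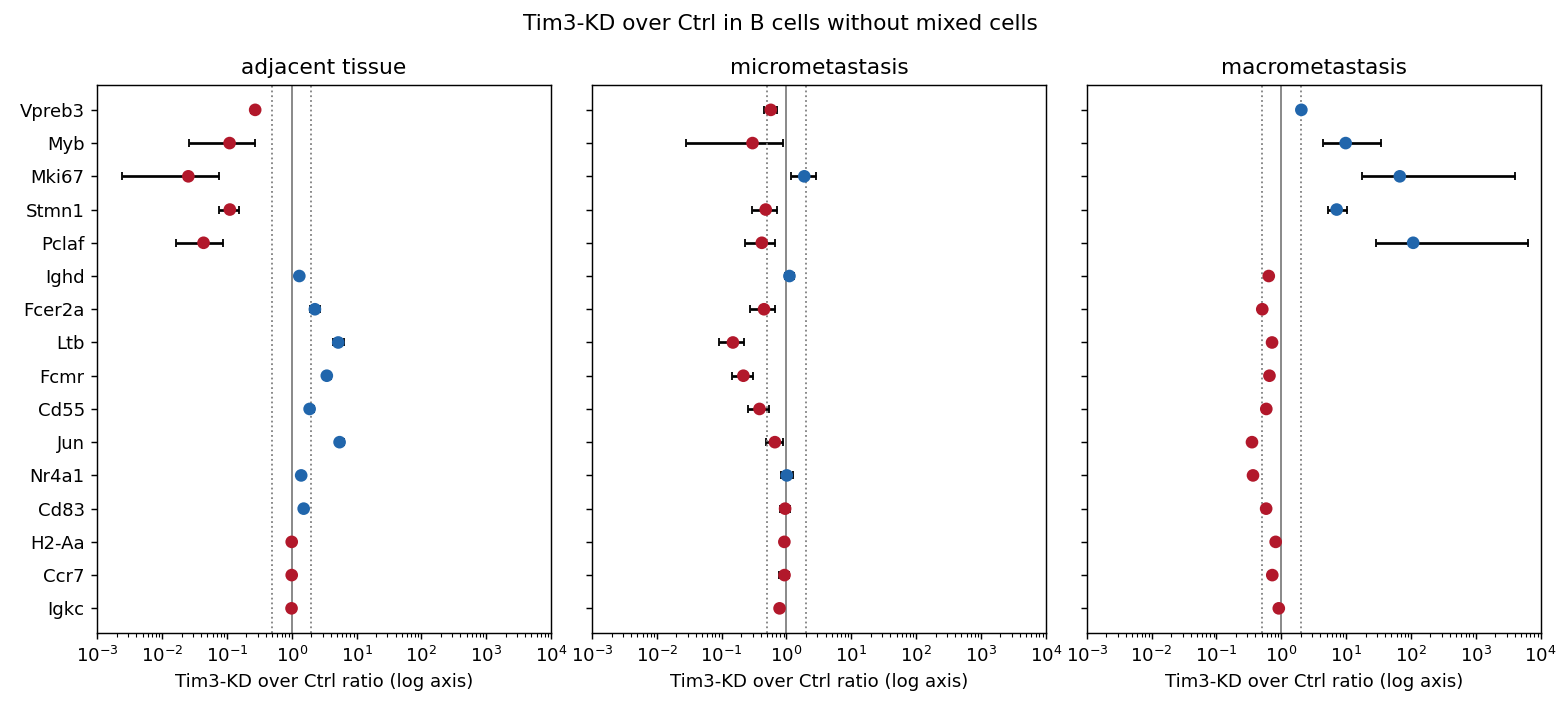
Tim3-KD over Ctrl ratio (log axis) of 16 genes in B cells without mixed cells at each site, with exact conditional 95% intervals, the solid line at 1 and dotted lines at 2-fold, blue above 1 and red below. Precursor and proliferation genes lie left of 1 in AT (Vpreb3 0.273) and right of it in macrometastasis (Vpreb3 2.04), and Ltb and Fcmr lie far left in micrometastasis (0.149 and 0.216). H2-Aa, Ccr7 and Igkc lie within the 2-fold lines, though below 1 for Ccr7 (0.726) and H2-Aa (0.819) in macrometastasis and Igkc (0.782) in micrometastasis.

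The Ctrl libraries were compared across sites, from UMIs over all-gene totals and on genes held by both matrices, whose scores had been scaled separately. From AT to micrometastasis at day 3, 145 of 1673 genes (8.67%) were called higher and 28 (1.67%) lower, and without mixed cells 76 of 1505 genes (5.05%) were called higher and 25 (1.66%) lower. Ltb was higher in micrometastasis with a ratio of 5.47 (4.63 to 6.54), and Fcmr with 2.66 (2.35 to 3.03). None of the proliferation or transitional genes was called, with Mki67 at 0.855 (0.686 to 1.07) and Vpreb3 at 0.674 (0.624 to 0.728). Of 8 interferon genes Bst2 was higher, at 3.36 (2.75 to 4.17) over all members and 1.14 (0.864 to 1.52) without mixed cells. From micrometastasis to macrometastasis, which differ in lesion and in day, 43 of 1284 genes (3.35%) were called higher and 101 (7.87%) lower, and without mixed cells 36 of 1135 genes (3.17%) were called higher and 69 (6.08%) lower. All 9 proliferation genes were lower (median log2 ratio -5.06), with Mki67 at 0.0192 (0.00338 to 0.049), and so were Vpreb3 (0.439, 0.397 to 0.483) and Myb (0.0938, 0.0345 to 0.188). Of 14 immediate early and activation genes Jun (2.48, 2.29 to 2.69) and Egr3 (2.23, 1.85 to 2.7) were higher and Atf3 lower (0.425, 0.376 to 0.479). The median log2 ratio over all tested genes was 0.18 and 0.09 in these comparisons, which share Ctrl libraries with those above.

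Ltb and Fcmr were followed over all libraries. Over the 6 libraries Ltb stood at 80.5 and 462 CPM in AT (Ctrl and Tim3-KD), 442 and 53.1 CPM in micrometastasis and 614 and 368 CPM in macrometastasis, and Fcmr at 162 and 613 CPM in AT (Ctrl and Tim3-KD), 432 and 73 CPM in micrometastasis and 546 and 301 CPM in macrometastasis. Both were lowest in AT Ctrl and micrometastasis Tim3-KD and higher in the other 4 libraries. At 1500 UMIs Ltb was detected in 11.5, 41.5, 46.7, 11.5, 57.1 and 46.9% of members in library order, and in 12.3, 23.2, 24.4, 6.97, 22.4 and 23% of the other cells, which include T cells that use it. The other cells were thus also lowest in AT Ctrl and micrometastasis Tim3-KD, and the part of this in the B cell values was not tested.

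Several genes of other B cell fates were low, and others of such lists were higher, among them Mzb1, Plac8, Ahnak, Dtx1 and Zeb2. Ahnak, of the B-1 list, lay between 68 and 188.6 CPM, and Dtx1, of the marginal zone list, between 21 and 68.6 CPM. Zeb2, of the age-associated list, stood at 85 and 70.8 CPM in micrometastasis (Ctrl and Tim3-KD). A count of 0 UMIs among the members allows up to 0.808 to 6.63 CPM, depending on the library. Cd5, a marker of B-1a cells, lay between 0 and 2.96 CPM. Bcl6, the factor of germinal centres, lay between 0 and 18.3 CPM, and Prdm1, which drives plasma cells, between 1.34 and 12.7 CPM. Mzb1, a chaperone of marginal zone B cells and plasma cells, was measured at 382 and 304 CPM in AT (Ctrl and Tim3-KD), 431 and 314 CPM in micrometastasis and 348 and 328 CPM in macrometastasis. Plac8, of the B-1 list, stood at 1072 and 361 CPM in AT and 642 and 1676 CPM in macrometastasis (Ctrl and Tim3-KD), and myeloid cells also use it. Without mixed cells these levels were 749.6, 267, 499 and 692 CPM. Il10, the cytokine of regulatory B cells, lay between 0 and 6.46 CPM. Havcr2, the gene of TIM3 itself, had 5, 0, 6, 0, 9 and 0 UMIs in the members in library order, and without mixed cells 1 UMI in each Ctrl library and 0 in each Tim3-KD library. It stood at 4.16 to 16.6 CPM in the other cells. Since the knockdown was in tumour cells, these values do not check it.

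B cells shared a set of factors with plasmacytoid dendritic cells (333 cells by the mean score of Siglech, Ccr9, Klk1 and Cox6a2 above 0.8). Tcf4 had a median over libraries of 131 CPM in B cells, 952 in plasmacytoid dendritic cells and 19.3 in T cells, and Spib 66.6, 167 and 1.92 CPM. Bcl11a stood at 75, 230.5 and 2.53 CPM and Irf8 at 225, 1728 and 89.7 CPM. All 4 were lower in B cells than in plasmacytoid dendritic cells and higher than in T cells in 6 of 6 libraries. Pax5 (192, 0.681 and 0.444 CPM) and Pou2af1 (182, 0 and 1.16 CPM) were higher in B cells than in both in 6 of 6 libraries. Blnk, whose promoter is printed above, stood at 128 CPM in B cells, 157 in plasmacytoid dendritic cells and 1.03 in T cells. Bcl2, which protects resting lymphocytes, was lower in B cells (77.7 CPM) than in T cells (312 CPM) in 6 of 6 libraries. These classes were chosen by their own markers in the same cells, so the levels are descriptions.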

How the data were processed

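CD45+ cells of 6 mouse liver libraries were sequenced with a 10x 3′ kit. Per the study's methods, reads were trimmed with Trim Galore 0.4.3 and aligned with STAR 2.7.7a to GRCm38 with Ensembl 102, reads over exons and introns were counted as UMIs, and doublets called by scrublet, with clusters rich in them, were removed. The values deposited by the authors were scaled scores. Whole UMIs were recovered from them as log-normalised UMIs per 10000, with total UMIs regressed out, scaled per gene within a site and capped at 10, steps inferred from the values. A capped score gave the least UMIs it allowed, in 0.0625% to 0.306% of the members' detected values per library. The matrices held 4486 genes in AT, 2669 in micrometastasis and 2643 in macrometastasis, and other genes were not analysed here.

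Levels were computed as CPM over all UMIs of the members. Ratios between libraries had 0.5 added to each sum and exact conditional 95% intervals. Features that named several genes, pseudogenes and genes also held in such a feature were left out, which was decided after the data were seen. Markers of other classes followed fixed lists, and Ccr7, Flt3, Vpreb1 and Igll1 were not counted as such, also decided afterwards. Genes named were those of the rule, up to 4 members of each list with the most UMIs, every measured isotype gene, the 5 with the highest lower and 5 with the lowest upper bounds per site, and the 10 leading B cell genes. Other genes were named after their values were seen. The members and the lists were chosen with earlier results of these data known. Promoter letters came from RefSeq. The count steps were tested on simulated data. Python 3.11.15, NumPy 2.4.6, SciPy 1.17.1, pandas 2.3.3 and matplotlib 3.10.9 were used. The alternatives concerned the threshold, members chosen on UMIs, mixed cells, denominator, depth, scaling and minimum UMIs.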

Additional observations from a re-analysis of the deposited data

Results flagged for a closer look

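The B cell share differed between Tim3-KD and Ctrl by 21.6 points in AT, by -11.7 points in micrometastasis and by -2.98 points in macrometastasis, so AT moved opposite to both lesions. Each group was 1 library, and neither this nor any difference between sites given here was tested.

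Among the listed and named genes, those past 2-fold in opposite directions at different sites, in B cells without mixed cells, with intervals that excluded 1 and at least 30 UMIs over both libraries of each such site, are given by their Tim3-KD over Ctrl ratio. This criterion was chosen after the data were seen. Genes of dividing cells were lower in AT and higher in macrometastasis. They were Mki67 (0.0254 and 67.4), Birc5 (0.0291 and 46.5), Pclaf (0.0436 and 108.4), Rrm2 (0.0474 and 11.9), Top2a (0.12 and 8.02), Stmn1 (0.111 and 7.15) and Ube2c (0.0163 and 45.2). In macrometastasis Ctrl Mki67, Birc5, Pclaf and Ube2c had 1 UMI each, so these ratios have wide intervals, that of Mki67 17.6 to 4009. In micrometastasis Pclaf had 0.416 and Stmn1 0.478. Of the early B cell genes Myb had 0.11 in AT, 0.299 in micrometastasis and 9.85 in macrometastasis, and Vpreb3 had 0.273 in AT and 2.04 in macrometastasis.

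The myeloid genes Prtn3 (0.00576 in AT and 5.48 in macrometastasis), Mpo (0.0144 and 3.71) and S100a4 (0.0171 and 4.4) ran the same way as the genes of division. Erdr1 (164.3 and 0.0285), Sdhaf1 (9.23 and 0.432) and Jun (5.48 and 0.353) ran the other way. Where a library had 0 UMIs, as Erdr1 in AT Ctrl and Prtn3 and Mpo in AT Tim3-KD, the ratio depends on the 0.5 added to each sum and is no bound. In the other cells too, Erdr1 was higher, and Elane lower, in AT Tim3-KD than in AT Ctrl and in macrometastasis Ctrl than in macrometastasis Tim3-KD. The part of these differences between libraries in the B cell contrasts was not tested, and with 1 library per group they cannot be told apart from the knockdown.

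Ltb (5.22 and 0.149), Fcmr (3.48 and 0.216) and Fcer2a (2.28 and 0.45) were higher in AT and lower in micrometastasis. The chemokine genes Ccl3 (0.238 in AT, 69.0 in micrometastasis and 0.439 in macrometastasis) and Ccl4 (0.361 in AT and 10.4 in micrometastasis) were higher in micrometastasis, where 1 cell held 90% of their UMIs.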

How the results depend on the processing

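No paired analysis was possible because each group was 1 library. Each difference in share kept its sign under every alternative run. The share of macrometastasis Tim3-KD was 10.5% at a score threshold of 0.5, and that of AT Ctrl 12.2% at 1.2. Without members with 2 markers of another class the shares were 11.5% (AT Ctrl), 26.4% (AT Tim3-KD), 12.3% (micrometastasis Ctrl), 11.1% (macrometastasis Ctrl) and 8.07% (macrometastasis Tim3-KD), and the AT difference was 14.9 points. Without mixed cells, an alternative chosen after seeing the data, they were 28.0% (AT Tim3-KD), 11.2% (macrometastasis Ctrl) and 8.38% (macrometastasis Tim3-KD), and the AT difference was 15 points. Among cells other than neutrophils they were 27.4% (AT Ctrl), 21.1% (micrometastasis Ctrl), 2.94% (micrometastasis Tim3-KD), 19.3% (macrometastasis Ctrl) and 15.6% (macrometastasis Tim3-KD), with differences of 9.56 points in AT and -18.2 points in micrometastasis. Among cells of at least 3000 UMIs micrometastasis Ctrl had 10.8% and the micrometastasis difference was -9.31 points. The number of genes past 2-fold moved by over 1.5 times as follows. In AT it was 513, and 168 with at least 100 UMIs. In micrometastasis it was 232, and 139 with at least 100 UMIs, 493 with members chosen on UMIs, 152 without members with 2 markers of another class and 150 without mixed cells. In macrometastasis it was 299, and 160 as a mean over cells, 156 with at least 100 UMIs, 149 at a threshold of 1.2, 171 with members chosen on UMIs, 114 without members with 2 markers of another class and 124 without mixed cells. A higher minimum tests fewer genes, and the cause of the other shifts was not tested. Of 1771 ratios of named genes under these alternatives 152 moved by over 1.5 times and 1 reversed: Bst2 in AT was 0.392, and 1.1 with members chosen on UMIs. The 78 B cells of micrometastasis Tim3-KD limit the precision of its values. A pool of mice per library hides the spread between mice, and the median UMIs of members were below those of all cells in each library.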

Other observations

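Further values of B cell genes, most of them named above, were as follows. Tgfb1, which encodes a regulatory cytokine, had a Tim3-KD over Ctrl ratio of 2.13 (1.43 to 3.29) in AT over all members and 1.99 (1.27 to 3.24) without mixed cells. In macrometastasis it ran opposite, with 0.466 (0.338 to 0.635) over all members and 0.452 (0.31 to 0.643) without mixed cells, and both calls were lost with ratios centred on the trimmed mean. Cd55, which protects cells from complement, stood at 183 and 357 CPM in AT (Ctrl and Tim3-KD), 239.5 and 86.2 CPM in micrometastasis and 277 and 135 CPM in macrometastasis, lowest in micrometastasis Tim3-KD. Klf2 stood at 295 and 596 CPM in AT (Ctrl and Tim3-KD), 251 and 221 CPM in micrometastasis and 407 and 205 CPM in macrometastasis, highest in AT Tim3-KD. Ccr7 stood at 520.1 and 548 CPM in AT (Ctrl and Tim3-KD), 456 and 385 CPM in micrometastasis and 587 and 332 CPM in macrometastasis, lowest in macrometastasis Tim3-KD.

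H2bc4, a histone gene, stood at 266 CPM in members of macrometastasis Ctrl and 50.9 CPM in those of macrometastasis Tim3-KD, while the other cells of these libraries had 124 and 121 CPM. The difference between these libraries was thus seen in the B cells and not in the sum of the other cells. Fam43a had a UMI in 187 of 677 members in micrometastasis Ctrl and in 6 of 78 in micrometastasis Tim3-KD.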
